A study of Caenorhabditis elegans with 20 samples.

Results

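Transcripts of the hermaphrodite somatic gonadal cells of *Caenorhabditis elegans* were compared before and after the first division of the gonadal precursors. The comparison covers the genes with at least 5 FPKM at 9.5 hr or at 15 hr after feeding began, which were 10256 of 19861 genes in the tables (51.6%). FPKM relates the fragments of a gene to the length of its transcript and to the size of the library, so that levels of long and short genes can be compared. For each gene the level at both times was combined into 1 value, the log2 ratio of the 15 hr FPKM plus 1 to the 9.5 hr FPKM plus 1. A positive ratio means higher at 15 hr. Adding 1 FPKM understates the difference of low genes. Where a pair of levels is given, the 9.5 hr level comes first.

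Both groups were taken from DZ685 animals, whose genotype combines the integrated array *rdIs4* with *xol-1(y9)*, an allele that kills XO males. In this array the *ehn-3a* promoter drives Venus, a yellow fluorescent protein, and fluorescent cells were sorted from dissociated larvae. Larvae were hatched without food and then fed. The 9.5 hr group had 3 samples and holds the precursors Z1 and Z4, and the 15 hr group had 2 samples and holds their daughters Z1.a, Z1.p, Z4.a and Z4.p. For comparison, male gonadal cells came from XX animals of DZ683, which adds the temperature-sensitive allele *tra-2(ar221)* to the same array and *xol-1(y9)*, and are therefore XX pseudomales. Whole hermaphrodites were dissociated but unsorted *xol-1(y9)* larvae, without the array at 9.5 hr and with it (DZ685) at 15 hr. Each of these groups also had 3 samples at 9.5 hr and 2 at 15 hr. The *xol-1(y9)* allele is shared by all groups.

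Every level is the authors' pooled value for a group. Values of single samples were not used here, so no value has a standard deviation and no difference between the times has a test. All differences are descriptions of pooled levels, and a gene or list is called past the 2-fold limit where its log2 ratio is at least 1 or at most -1. The times were normalized in separate Cuffdiff runs, so time, run and number of samples cannot be told apart. For abundance within a sample, fewer cells of a type and less RNA per cell cannot be told apart either.

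In the gonadal primordium of the first larval stage, Z1 and Z4 lie at the ends of a short row with the germline precursors between them. In hermaphrodites each divides into a distal daughter, whose lineage gives a distal tip cell that leads a growing arm, and a proximal daughter, whose lineage can give the anchor cell. Further descendants form the sheath, spermatheca and uterus. The daughters differ through the Wnt/beta-catenin asymmetry pathway, in which the TCF factor POP-1 and the beta-catenin SYS-1 are distributed unequally. Later, Notch signalling between a pair of proximal descendants picks the anchor cell, which induces the vulva with the EGF-like ligand LIN-3.

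The label of the cells was set beside 27 genes described in somatic gonad precursors. Their summed level in gonadal cells was 1820 FPKM at 9.5 hr and 1990 FPKM at 15 hr, which was 239% and 222% of the level in whole hermaphrodites. Of these genes, 21 at 9.5 hr and 20 at 15 hr had the greater FPKM in the gonadal group. The paper made reporters for *ckb-3*, *sdz-1*, *ceh-8* and *pes-1* of this list as genes with gonad-enriched mRNA in these same data. Their excess over whole animals is therefore no independent check of the label. *ckb-3*, a choline kinase gene (coordinates are 1-based on ce10; chromosome III, 4370857 to 4372792), had 249 and 155 FPKM in gonadal cells, and 17.8 and 10.1 FPKM in whole hermaphrodites. *gem-4*, a copine gene (chromosome IV, 11745617 to 11748604), was at 112 and 69.2 FPKM in gonadal cells and at 18.6 and 17 FPKM in whole hermaphrodites. Both were lower at 15 hr by less than 2-fold, with log2 ratios of -0.68 and -0.69. *ehn-3*, a zinc finger gene whose promoter marked the sorted cells (chromosome IV, 5416897 to 5419186), was at 8.97 FPKM at 9.5 hr and 0.287 FPKM at 15 hr. At 15 hr it was also lower in gonadal cells than in whole hermaphrodites (0.592 FPKM).

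Markers of other cell types were present in the gonadal groups at both times, and all but those of the germline had lower summed levels than in whole animals. As a percentage of the whole hermaphrodite level, body wall muscle markers (21 genes) were at 24.9% and 26.8%, pharynx markers (14) at 17.3% and 20.1%, and intestine markers (23) at 27.8% and 19.1%. The pharynx list shares *ceh-22* with the precursor list. *ceh-22* was at 43.2 and 141 FPKM in gonadal cells, and at 12 and 21.2 FPKM in whole hermaphrodites. Neuron markers (36) went from 35.6% to 20.8%, coelomocyte markers (8) from 10.5% to 5.12% and hypodermis markers (21) from 64.4% to 32%. The hypodermis list shares *lin-26* with the precursor list, and the part of *lin-26* in these percentages was not separated. The neuron list includes *unc-119*, whose levels in whole hermaphrodites without and with the array are given below. Its part in the neuron percentages was not separated. Germline markers (36 genes) were at 114% and 128% as a sum. Only 12 and 14 of the 36 had the greater FPKM in the gonadal group, so the sums do not describe most members. No marker of these lists was listed at 0 in gonadal cells, and the number of genes under 1 FPKM in gonadal cells was 8 and 9 for the germline, 5 and 6 for the intestine, 6 and 2 for the hypodermis, and at most 2 at either time for the others. Their part in the differences below was not tested, except where a value is given beside a result.

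**Figure D1:**
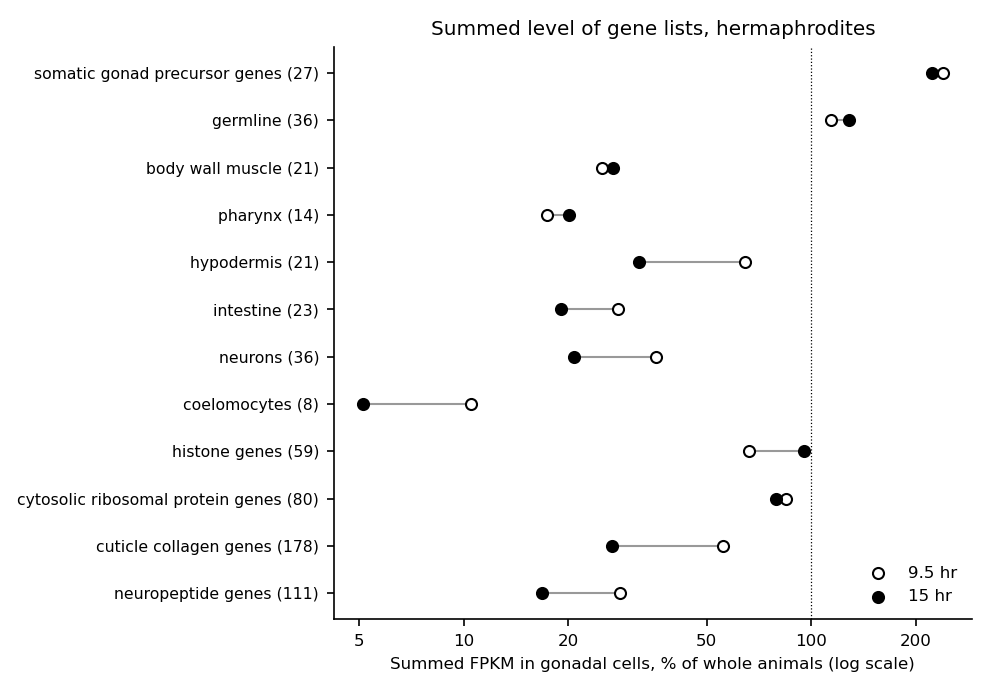
Summed FPKM of marker lists and gene families in hermaphrodite gonadal cells as a percentage of the summed FPKM in whole hermaphrodites (log scale), at 9.5 hr (open) and 15 hr (filled), with the number of genes in parentheses. Somatic gonad precursor genes lie at 239% and 222%, while hypodermis markers, cuticle collagens, neuron markers and neuropeptides lie further below 100% at 15 hr than at 9.5 hr.

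Of the 10256 genes, 8607 had at least 5 FPKM at both times. At 15 hr, 848 genes (8.27%) were at least 2-fold higher, 1482 genes (14.5%) were at least 2-fold lower, and 7926 genes (77.3%) lay within 2-fold. The far tail of the higher genes was longer: 133 genes were at least 8-fold higher and 56 at least 8-fold lower, and 58 and 8 were past 16-fold. The median log2 ratio was 0.16, a 1.12-fold shift towards 15 hr, and ratios of lists below are read against this shift. Counts of list members past the limit are likewise read against the 8.27% higher and 14.5% lower of all genes. These shares differ by level, as given below, and lists were not matched for level. Scaling both times to the same upper quartile (47 FPKM at 9.5 hr and 55.5 FPKM at 15 hr before scaling) gave 630 higher and 1844 lower genes. The higher genes were then 25.5% of those past the limit instead of 36.4%. The order of genes was similar at both times, with Spearman's rho of 0.937 over 19861 genes and 0.892 over the 10256, across genes that share libraries and are not replicates.

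The sexes give a measure of how far pooled gonadal groups lie apart within a run. At 9.5 hr, 545 of 10106 genes (5.39%) were at least 2-fold apart between male and hermaphrodite gonadal cells, with an interquartile range of the log2 ratio of 0.41. At 15 hr 1376 of 9993 genes (13.8%) were, with an interquartile range of 0.74. Between the times in hermaphrodite gonadal cells, 2330 genes (22.7%) were past 2-fold with an interquartile range of 0.90. At the edge of the selection, 394 genes had 5 to 6 FPKM at their higher time and 535 genes just outside had 4 to 5 FPKM.

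**Figure D2:**
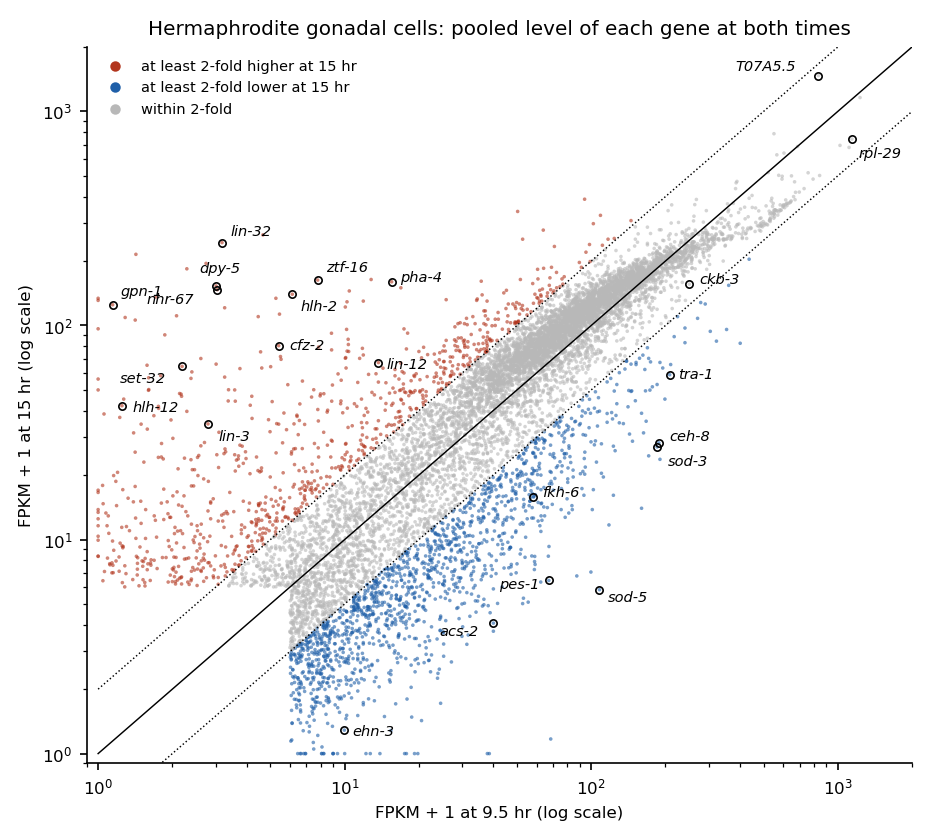
Pooled FPKM plus 1 of each of the 10256 genes in hermaphrodite gonadal cells at 9.5 hr and at 15 hr (log scales), with equality (solid line) and the 2-fold limits (dotted). Genes at least 2-fold higher at 15 hr are red (848), those at least 2-fold lower are blue (1482), and named genes such as *lin-32* (2.18 and 243 FPKM) and *sod-5* (107 and 4.83 FPKM) are circled.

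The anchor cell regulators *hlh-2* and *nhr-67* and the proneural gene *lin-32* were among the genes with the largest ratios. *lin-32*, an Atonal-family basic helix-loop-helix (bHLH) gene (chromosome X, 2229200 to 2230077), was at 2.18 FPKM at 9.5 hr and 243 FPKM at 15 hr, a log2 ratio of 6.26. It moved from percentile 41.8 to percentile 98.7 of all 19861 genes. *hlh-2*, the E/Daughterless gene whose product pairs with other bHLH factors and is required for anchor cell fate (chromosome I, 7190846 to 7193914), was at 5.13 and 139 FPKM (log2 ratio 4.52). *nhr-67*, the gene of a Tailless-related nuclear receptor with a role in the anchor cell (chromosome IV, 11169813 to 11174733), was at 2.04 and 146 FPKM (5.6). In male gonadal cells all 3 were also higher at 15 hr, with ratios of 6.94, 4.22 and 4.32. In whole hermaphrodites the same genes differed little between the times, at 28.1 and 24.9 FPKM for *lin-32*, 48.7 and 48.6 FPKM for *hlh-2*, and 11.6 and 13.8 FPKM for *nhr-67*.

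The Notch receptor and ligand genes differed less. *lin-12*, the Notch receptor gene of this decision (chromosome III, 9060165 to 9071311), was at 12.7 and 66.1 FPKM (log2 ratio 2.29), and its DSL ligand gene *lag-2* (chromosome V, 3188348 to 3189839) was at 41.3 and 62.3 FPKM (0.58). *lin-3*, the EGF-like ligand gene (chromosome IV, 11054289 to 11064120), was at 1.79 and 33.7 FPKM (3.64), while in male gonadal cells it was at 3.67 and 3.28 FPKM. The *lin-3* entry has the same locus in the tables as another gene, called a shared locus below, so its reads may be divided between them. *egl-43* and *fos-1*, regulators of anchor cell invasion chosen here after their values were seen, were abundant at both times, at 233 and 193 FPKM for *egl-43* (in a shared locus), and at 116 FPKM at 9.5 hr with a log2 ratio of -0.20 for *fos-1*. Of 19 genes in the Notch and anchor cell list with at least 5 FPKM, 5 (26.3%) were past the limit upwards and 0 downwards. They were *lin-12*, *hlh-2*, *nhr-67*, *lin-3* and the CDK inhibitor gene *cki-1*. The median ratio of the list was 0.60 beside 0.16 over all genes.

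**Figure D3:**
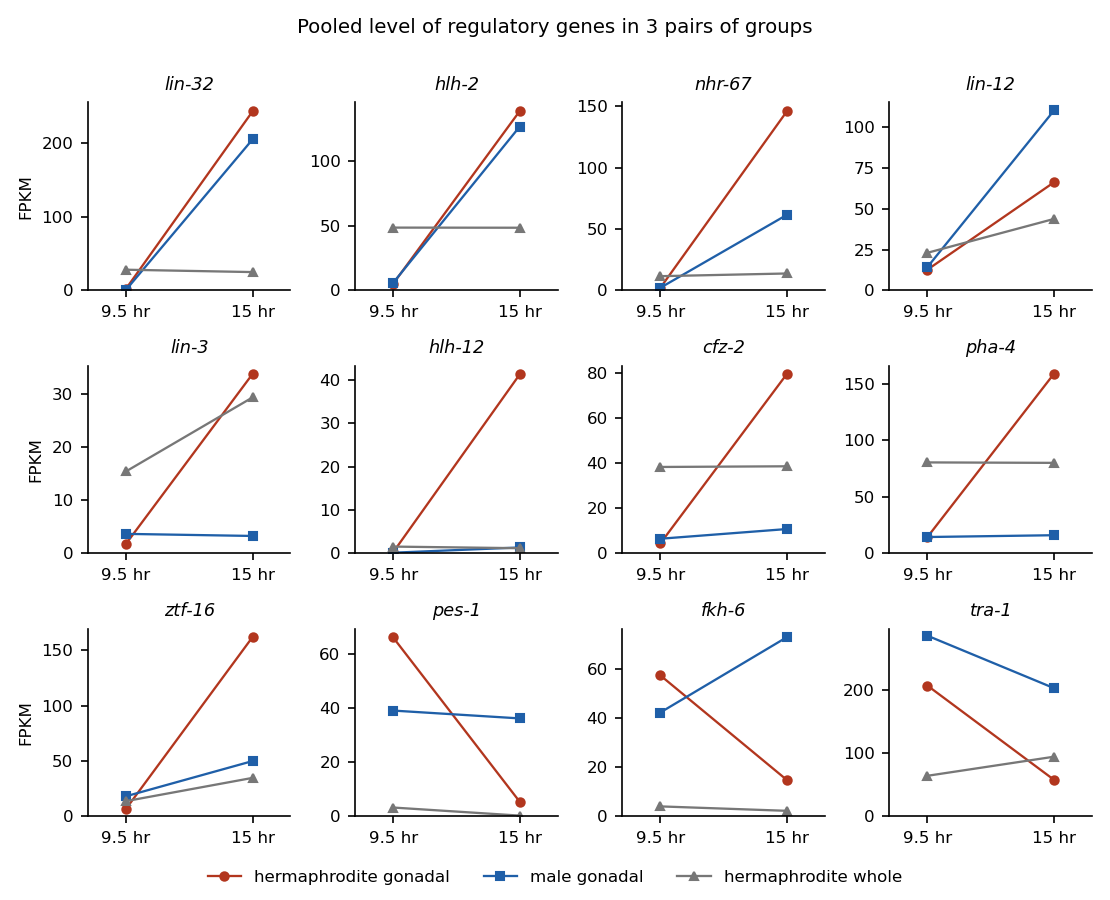
Pooled FPKM (linear axes from 0) at 9.5 hr and 15 hr of 12 regulatory genes in hermaphrodite gonadal cells (red circles), male gonadal cells (blue squares) and whole hermaphrodites (grey triangles). *lin-32*, *hlh-2* and *nhr-67* were higher at 15 hr in gonadal cells of both sexes, *lin-3*, *cfz-2* and *pha-4* differed by less than 2-fold in male gonadal cells, *hlh-12* was at 0.164 and 1.37 FPKM there, and *pes-1*, *fkh-6* and *tra-1* were lower at 15 hr in hermaphrodite gonadal cells.

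Other bHLH and forkhead genes also stood out. *hlh-12*, a bHLH gene required for distal tip cell migration (chromosome IV, 8477167 to 8480626), was at 0.249 FPKM at 9.5 hr and 41.2 FPKM at 15 hr in hermaphrodite gonadal cells. It was at 0.164 and 1.37 FPKM in male gonadal cells and at 1.57 and 1.20 FPKM in whole hermaphrodites, so the late hermaphrodite gonadal group was the high one of these 6 groups. The *hlh-12* entry is in a shared locus. *pha-4*, the FoxA gene known for pharynx identity (chromosome V, 20752905 to 20760282), was at 14.5 and 159 FPKM in hermaphrodite gonadal cells, at 14.5 and 16.1 FPKM in male gonadal cells and at 80.5 and 80.1 FPKM in whole hermaphrodites. Pharynx markers summed to 191 FPKM at 9.5 hr and 314 FPKM at 15 hr in hermaphrodite gonadal cells. Of these sums, 43.2 and 141 FPKM came from *ceh-22*, which is also in the precursor list. The part of pharynx markers in the *pha-4* result was not tested. The pharynx list does not hold *pha-4*. Of its 11 markers with at least 5 FPKM, 4 (36.4%, against 8.27% over all genes) were past the limit upwards: *phat-2*, *phat-4*, *phat-5* and *ceh-22*. Downwards were 2 (18.2%, against 14.5%), *phat-3* and *phat-6*. *ahr-1*, the aryl hydrocarbon receptor gene (chromosome I, 9522570 to 9532823, in a shared locus), was at 12.7 and 53.4 FPKM (log2 ratio 1.99). Of 19 bHLH genes with at least 5 FPKM, 6 (31.6%) were past the limit upwards and 1 (5.26%), the Max-like gene *mxl-3* (40.7 and 11.9 FPKM), downwards.

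The genes with the next largest ratios included several regulators better known from neurons. *mnm-2*, a zinc finger gene (chromosome X, 7422766 to 7424836), was at 3.66 and 264 FPKM (log2 ratio 5.83). *ham-1*, which acts in asymmetric neuroblast divisions (chromosome IV, 12542011 to 12545701), was at 3.46 and 109 FPKM (4.62). *fax-1*, a nuclear receptor gene of neuron identity (chromosome X, 3197273 to 3199311), was at 1.38 and 55.6 FPKM (4.57). Male gonadal cells reached 213 FPKM for *mnm-2* and 76.7 FPKM for *ham-1* at 15 hr, but 1.05 FPKM for *fax-1*. Whole hermaphrodites at 15 hr were below hermaphrodite gonadal cells for all 3, at 35.1 FPKM for *mnm-2* and 6.46 FPKM for *fax-1*. *set-32*, a SET domain gene with a role in inherited silencing (chromosome I, 9519250 to 9521182), was at 1.19 and 63.4 FPKM (4.88), and male gonadal cells were at 1.00 and 1.6 FPKM. B0310.3 (chromosome X, 510900 to 514483) and C39B5.2 (chromosome III, 2234872 to 2236971) were at 69.1 and 133 FPKM at 15 hr, with ratios of 4.75 and 4.67.

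Genes of the precursor list were past the limit in both directions, so that the list has no single direction. Of 26 members with at least 5 FPKM, 4 (15.4%) were at least 2-fold higher (*ztf-16*, *lin-12*, *ceh-22* and *gon-2*). Another 6 (23.1%) were at least 2-fold lower (*pes-1*, *ehn-3*, *ceh-8*, *tcl-2*, *fkh-6* and *tra-1*), and the median was 0.48. *ztf-16*, a zinc finger gene (chromosome X, 4805991 to 4811506), was at 6.77 and 162 FPKM (log2 ratio 4.39), against 18.2 and 50 FPKM in male gonadal cells. *ceh-22*, an Nkx-family homeobox gene that acts in distal tip cell fate and in pharyngeal muscle (chromosome V, 10672438 to 10675623), was at 43.2 and 141 FPKM (1.68). *gon-2*, which encodes a TRPM cation channel needed for gonadal divisions (chromosome I, 8549524 to 8570951), was at 90.2 and 186 FPKM (1.04). Scaled to the same upper quartile, 3 members were past the limit upwards and 6 downwards.

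On the other side, *pes-1*, a forkhead gene (chromosome IV, 5002744 to 5005339), was at 66.3 FPKM at 9.5 hr and 5.44 FPKM at 15 hr, a log2 ratio of -3.39. Male gonadal cells were at 39.2 and 36.3 FPKM for *pes-1*. *fkh-6*, a forkhead gene that acts in early gonadogenesis of both sexes (chromosome II, 4378839 to 4386290, in a shared locus), had 57.3 and 14.8 FPKM in hermaphrodites (-1.88) and 42.2 and 72.8 FPKM in males (0.77). *tra-1*, the Gli-family gene at the end of the sex determination pathway (chromosome III, 11171993 to 11195101), was at 207 and 57.9 FPKM (-1.82), with 286 and 203 FPKM in male gonadal cells and 64.3 and 94.5 FPKM in whole hermaphrodites. *ceh-8*, a homeobox gene (chromosome I, 8245849 to 8250890), was at 187 and 27.3 FPKM (-2.74). Male gonadal cells were at 245 and 79.2 FPKM for *ceh-8*, also past the limit. *set-12*, a SET domain gene (chromosome X, 7733288 to 7736097), was at 17.6 and 1.04 FPKM in hermaphrodites and at 21.5 and 21.1 FPKM in males. For *pes-1*, *fkh-6*, *tra-1* and *set-12* the sexes therefore lay closer at 9.5 hr than at 15 hr, a difference that was not tested.

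Genes of the Wnt/beta-catenin asymmetry list were past the limit in both directions. Of 25 members with at least 5 FPKM, 4 were at least 2-fold higher (16%, against 8.27% over all genes). At least 2-fold lower were 2 (8%, against 14.5%), and the median was 0.49. After subtraction of the whole-animal ratio the list median was 0.0001, and with both times scaled to the same upper quartile it was 0.25. *cfz-2*, a Frizzled receptor gene (chromosome V, 3441498 to 3444874), was at 4.40 and 79.5 FPKM (log2 ratio 3.90), with 6.50 and 10.8 FPKM in male gonadal cells. *pry-1*, the Axin gene (chromosome I, 14172828 to 14179348), was at 9.10 and 69.8 FPKM (2.81), and the male gonadal ratio was 3.07. *tcl-2*, which acts in asymmetric divisions (chromosome IV, 179008 to 183261), was at 52 and 10.8 FPKM (-2.17). The other gene past the limit downwards was the Wnt ligand gene *cwn-1*, at 22.8 and 9.51 FPKM. The core genes were higher at 15 hr by slightly less than 2-fold, and are given here after their values were seen: *pop-1* at 49.1 and 98.5 FPKM and *sys-1* at 35.1 and 69.4 FPKM, with ratios of 0.99 and 0.96.

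Matrix and guidance genes included some of the widest differences among cell surface proteins. *gpn-1*, a glypican gene (chromosome X, 15681658 to 15687331), was at 0.145 and 124 FPKM (log2 ratio 6.77). Male gonadal cells were at 0.481 and 35.1 FPKM for *gpn-1*, and whole hermaphrodites at 1.69 and 9.61 FPKM. *ddr-2*, a discoidin domain receptor gene (chromosome X, 3315309 to 3324215), was at 4.49 and 70.6 FPKM (3.70) and close to this in males, at 5.29 and 82.2 FPKM. *ptp-3*, a LAR-type receptor phosphatase gene (chromosome II, 10968326 to 11012181), had 37.1 and 106 FPKM (log2 ratio 1.5). Altogether 4 of 23 basement membrane and integrin genes were past the limit upwards (17.4%, against 8.27% over all genes). Past it downwards were 3 (13%, near the 14.5% over all genes). The downward ones were the nidogen gene *nid-1* (57 and 24.3 FPKM), the agrin gene *agr-1* (5.57 and 1.78 FPKM, in a shared locus) and the tetraspanin gene *tsp-15* (20.3 and 7.38 FPKM, in a shared locus).

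Among 42 guidance and migration genes, 4 were at least 2-fold higher (9.52%) and 6 at least 2-fold lower (14.3%), shares close to the 8.27% and 14.5% over all genes. Both sides of the ephrin pair were higher at 15 hr: the ephrin gene *vab-2* (chromosome IV, 3761187 to 3766821) was at 7.23 and 47 FPKM and the Eph receptor gene *vab-1* (in a shared locus) at 20.7 and 72.1 FPKM. The FGF receptor gene *egl-15* (chromosome X, 11016344 to 11023329) was at 15.0 and 3.26 FPKM, the ADAMTS protease gene *adt-2* (chromosome X, 7585539 to 7595341) at 109 and 27 FPKM, and the Slit gene *slt-1* at 7.39 and 1.71 FPKM. Of 32 junction and polarity genes, 4 (12.5%) were past the limit upwards and 0 downwards. They were *par-3* (27 and 97.6 FPKM), *par-2* (18 and 47.7 FPKM), the apical junction gene *ajm-1* (37.7 and 84.8 FPKM) and the RhoGEF gene *ect-2* (50.2 and 112 FPKM). Among genes of distal tip, sheath and spermatheca cells, 4 of 16 were past the limit upwards (25%) and 3 downwards (18.8%). *egl-13*, a SOX gene of the uterine lineage (chromosome X, 5663802 to 5673351), was at 24.8 and 131 FPKM (2.36). *clc-2*, a claudin-like gene (chromosome X, 7431425 to 7433489), was at 29.6 FPKM at 9.5 hr with a log2 ratio of 1.74, and *inx-9*, a gap junction gene of the gonadal sheath (chromosome IV, 11676361 to 11678352), at 27.7 and 78.6 FPKM.

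Cell division genes were shifted together by a small amount. All 68 mitosis and cytokinesis genes with at least 5 FPKM had a ratio above 0, with a median of 0.61, and 16 were past 2-fold upwards and 0 downwards. Against the all-gene median, 65 of the 68 lay above it, and 62 stayed above 0 when both times were scaled to the same upper quartile. The spindle kinesin gene *klp-18* (chromosome IV, 7040200 to 7043683) was at 19.5 and 69.6 FPKM, and the centriole gene *sas-5* (chromosome V, 11610690 to 11613036) at 14.7 and 50 FPKM. The B-type cyclin gene *cyb-1* (chromosome IV, 10735304 to 10737155) was at 35.7 FPKM at 9.5 hr with a log2 ratio of 1.47. In male gonadal cells the median of the same 68 genes was 1.41 with 49 past the limit, and in whole hermaphrodites it was -0.08 with 0 past it.

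DNA replication genes followed the same order of groups at a smaller size. Of 45 members, 5 (11.1%, against 8.27% over all genes) were past the limit upwards and 0 downwards. The median was 0.53, beside 1.25 in male gonadal cells (31 past the limit) and -0.30 in whole hermaphrodites. Scaled to the same upper quartile, 1 of the 45 was past the limit. The geminin gene *gmn-1*, an inhibitor of origin licensing (chromosome III, 12224532 to 12225230), was at 36.2 and 116 FPKM (log2 ratio 1.65). Of 25 G1 and S phase regulators, 4 (16%) were past the limit upwards and 0 downwards. *cdk-4*, the partner of cyclin D (chromosome X, 13515981 to 13518834), was at 16.1 and 59.9 FPKM. *cki-1*, the p27-type inhibitor gene (chromosome II, 7811189 to 7812049), was at 59.6 and 182 FPKM, and ZK507.6 (present symbol *cya-1*, an A-type cyclin gene, in a shared locus) was at 33.3 and 130 FPKM. At 9.5 hr the hermaphrodite level of *klp-18* was above the male gonadal level (19.5 against 10.4 FPKM), as was that of *gmn-1* (36.2 against 27.3 FPKM). At 15 hr the male level was the higher one, at 86.7 FPKM for *klp-18* and 144 FPKM for *gmn-1*.

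Of the histone genes with at least 5 FPKM, 22 lay above the all-gene median and 9 below it. Their summed level was 4510 FPKM at 9.5 hr and 6080 FPKM at 15 hr, and 66.2% and 95.4% of the level in whole hermaphrodites. Of 59 histone genes in the tables, 31 had at least 5 FPKM, of which 14 were past the limit upwards and 0 downwards, with a median of 0.79 (male gonadal cells 1.75, whole hermaphrodites -0.05). Over all 59, low ones included, the median was 0.06. *his-38* (chromosome X, 7309519 to 7309830) was at 49.3 and 340 FPKM, and *his-67* (chromosome I, 9988336 to 9988786) at 34.8 and 160 FPKM. Many histone genes are near-identical copies with transcripts that lack poly(A), and reads of 50 bases may be divided among copies, so values of single genes are uncertain. Libraries were made after depletion of ribosomal RNA without selection for poly(A).

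Ribosomal protein genes stood on the opposite side and varied little among themselves. Of 79 genes with at least 5 FPKM, 78 had a ratio below 0 and all 79 lay below the all-gene median, with a median of -0.73, while 1 was past the 2-fold limit. Scaled to the same upper quartile, 20 of the 79 were past the limit downwards. The highest were *rpl-29* (chromosome IV, 13882198 to 13882595) at 1140 and 742 FPKM and *rps-28* (chromosome IV, 1659690 to 1660002) at 1110 and 678 FPKM. The gene past the limit, *rpl-16* (chromosome III, 3502825 to 3505213, in a shared locus), was at 436 and 203 FPKM. Its estimate is among those marked as skipped, failed or low in data by the authors' runs, so its ratio is uncertain. In male gonadal cells the median of this list was -0.20, and in whole hermaphrodites it was -0.61. Abundant genes as a class were lower at 15 hr: the number at 300 FPKM or more was 195 at 9.5 hr and 110 at 15 hr in hermaphrodite gonadal cells. It went from 244 to 276 in male gonadal cells and from 250 to 191 in whole hermaphrodites. The abundant elongation factor gene *eft-3* (chromosome III, 6969971 to 6971663) was at 486 and 275 FPKM, close to the ribosomal protein genes. Quantile normalization, which gives both times the same distribution of levels, moved the ribosomal protein median to -0.21, beside 0.03 over all genes. After subtraction of the whole-animal ratio it was -0.11. The size of the ribosomal difference thus depended on the scaling, while its sign was the same in each of these. Proteasome subunits (33 genes, median 0.08), mitochondrial ribosome genes (64, 0.23) and respiratory chain genes (43, -0.06) had 0 members past the limit in either direction.

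The genes with the lowest ratios included stress and fat metabolism enzymes. *sod-5*, a copper/zinc superoxide dismutase gene (chromosome II, 4417683 to 4419045), was at 107 FPKM at 9.5 hr and 4.83 FPKM at 15 hr, a log2 ratio of -4.21 and the lowest among genes with at least 1 FPKM at both times. It was at 38.1 and 5.86 FPKM in male gonadal cells and at 2.72 and 1.48 FPKM in whole hermaphrodites. *sod-3*, a manganese superoxide dismutase gene (chromosome X, 17092644 to 17094149), was at 184 and 26.1 FPKM (-2.77), and *acs-2*, an acyl-CoA synthetase gene of fatty acid oxidation (chromosome V, 15567375 to 15569868), at 39.1 and 3.07 FPKM (-3.30). Whole hermaphrodites did not follow for these: they were at 20.9 and 34.6 FPKM for *sod-3* and at 15.9 and 16.5 FPKM for *acs-2*.

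In the list of insulin signalling and starvation response genes, 12 of 32 were past the limit downwards and 1, *pha-4*, upwards, with a median of -0.23. Besides *sod-3* and *acs-2*, those lower included enzymes of stored carbon use. *gei-7*, a glyoxylate cycle gene (chromosome V, 724208 to 728104), was at 159 and 37.9 FPKM, W05G11.6 (present symbol *pck-1*, PEP carboxykinase) at 239 and 82.1 FPKM, and the trehalose synthesis gene *tps-2* (in a shared locus) was at 22 FPKM at 15 hr with a log2 ratio of -2.19. *aak-1*, a gene of a catalytic subunit of the AMP-activated kinase (in a shared locus), was at 150 and 43.5 FPKM, and *daf-16*, the FoxO gene downstream of the insulin receptor (chromosome I, 10750559 to 10776689), at 47 and 16.5 FPKM. The receptor gene *daf-2* was at 75 and 73.4 FPKM. In male gonadal cells 8 of the 32 were past the limit downwards, with a median of -0.36, and in whole hermaphrodites 1 was. Larvae of both times had been hatched without food, and the time since feeding began is the time compared here.

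Detoxification enzymes and nuclear hormone receptors were past the limit downwards more often than upwards. Of 73 cytochrome P450, UGT and GST genes with at least 5 FPKM, 37 were past the limit downwards and 3 upwards, with a median of -1.02. The background was 14.5% downwards over all genes, and male gonadal cells (32 of the 73, median -0.96) were near the hermaphrodite values. *cyp-13A10* (chromosome II, 9660791 to 9662887) was at 33.1 and 3.58 FPKM and *gst-9* (chromosome II, 4891583 to 4893480, in a shared locus) at 48.4 and 9.80 FPKM. Of 151 nuclear hormone receptor genes, 45 were past the limit downwards and 4 upwards, and 102 lay within 2-fold, with a median of -0.38. The same genes had a median of -0.86 in male gonadal cells (63 past the limit downwards) and of -0.38 in whole hermaphrodites (17), so the median shift was the same in whole animals. *nhr-167* (chromosome X, 11980142 to 11981916) was at 30.7 and 2.58 FPKM, *nhr-120* (chromosome X, 6636534 to 6640583) at 28.1 and 3.27 FPKM and *nhr-80*, a regulator of fatty acid desaturation (chromosome III, 12186 to 14801), at 14.3 and 1.16 FPKM. The receptor *nhr-67* described above was the widest exception.

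Neuropeptide and neuron genes were lower at 15 hr, together with the share of neuron markers. Of 111 neuropeptide genes, 94 had at least 5 FPKM, of which 68 were past the limit downwards and 1 upwards, with a median of -1.44. Their summed level was 3840 FPKM at 9.5 hr and 1670 FPKM at 15 hr, which was 28.1% and 16.8% of whole hermaphrodites. *nlp-5* (chromosome II, 8242457 to 8243696) was at 35.2 and 3.89 FPKM, *nlp-37* (chromosome X, 2163378 to 2163761) at 56.4 and 7.38 FPKM, and *nlp-28* (chromosome V, 3987885 to 3988297) at 22.7 and 2.43 FPKM. Whole hermaphrodites were higher than gonadal cells at both times for these 3 genes, at 154 and 67.4 FPKM for *nlp-5*. The median of the 94 genes was -1.09 in male gonadal cells and -0.53 in whole hermaphrodites.

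Of 29 neuron markers with at least 5 FPKM, 17 were past the limit downwards and 0 upwards, with a median of -1.12, beside -0.22 in male gonadal cells and 0.05 in whole hermaphrodites. The peptide processing genes *egl-3* (80.2 and 26.4 FPKM), *egl-21* (71.2 and 20.7 FPKM) and *ida-1* (46.6 and 14.5 FPKM) were in this group. *unc-119*, used in the neuron list and chosen here after its values were seen, was at 269 and 107 FPKM in gonadal cells. In whole hermaphrodites it was at 48.9 FPKM in the early group, which lacks the array, and 365 FPKM in the late group, which carries it. Insulin-like peptide genes were lower as well, with 12 of 25 past the limit downwards, 2 upwards and a median of -0.96. *ins-11* (chromosome II, 5556744 to 5557071) had 17.6 and 1.59 FPKM, with 31.7 and 34.7 FPKM in male gonadal cells. Neuron markers, *unc-119* included, summed to 1580 and 967 FPKM in hermaphrodite gonadal cells and to 1700 and 1520 FPKM in male gonadal cells. They moved with these lists in hermaphrodites, and their part in the result was not tested.

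Cuticle genes were past the limit in both directions, and whole animals had ratios of the same sign for those named here. Of 178 cuticle collagen genes, 93 had at least 5 FPKM, of which 48 were past the limit upwards and 19 downwards, with a median of 1.22. In whole hermaphrodites the median of the same genes was 2.58, with 57 upwards and 12 downwards. After subtraction of the whole-animal ratio the collagen median was -1.04. *dpy-13* (chromosome IV, 4235607 to 4236699) was at 0.716 and 135 FPKM in gonadal cells and at 2.98 and 362 FPKM in whole hermaphrodites. *dpy-5* (chromosome I, 5432161 to 5433059) was at 2.01 and 152 FPKM, and at 4.97 and 372 FPKM in whole hermaphrodites, while *sqt-3* (chromosome V, 12352975 to 12354295) was at 1.4 and 59.7 FPKM and at 3.69 and 236 FPKM.

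The entry with the largest ratio among genes with at least 1 FPKM at both times, which the table names only cuticlin (chromosome V, 13415049 to 13417591, in a shared locus), was at 1.29 and 183 FPKM in gonadal cells and at 2.63 and 410 FPKM in whole hermaphrodites. C02E7.6 (chromosome V, 4919193 to 4919567), R12E2.7 (chromosome I, 4153959 to 4154444) and the hedgehog-related gene *grl-21* (chromosome IV, 10737457 to 10738107) had ratios of 6.16, 5.21 and 5.73, and 5.97, 6.80 and 5.22 in whole hermaphrodites. Collagens in the other direction were *col-98* (98.7 and 6.05 FPKM, chromosome III, 13018834 to 13020125), *col-181* (117 and 10.7 FPKM, chromosome X, 12104862 to 12106013) and *col-176* (22.9 and 1.37 FPKM, chromosome X, 10077554 to 10078542), and all 3 were past the limit downwards in whole hermaphrodites too. *col-181* differed from the others in level, since gonadal cells were above whole hermaphrodites at both times (8.51 and 0.992 FPKM). Hypodermis markers in gonadal cells summed to 348 and 832 FPKM beside 540 and 2600 FPKM in whole hermaphrodites, and their part in the collagen result was not tested. These markers include *lin-26* of the precursor list.

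**Figure D4:**
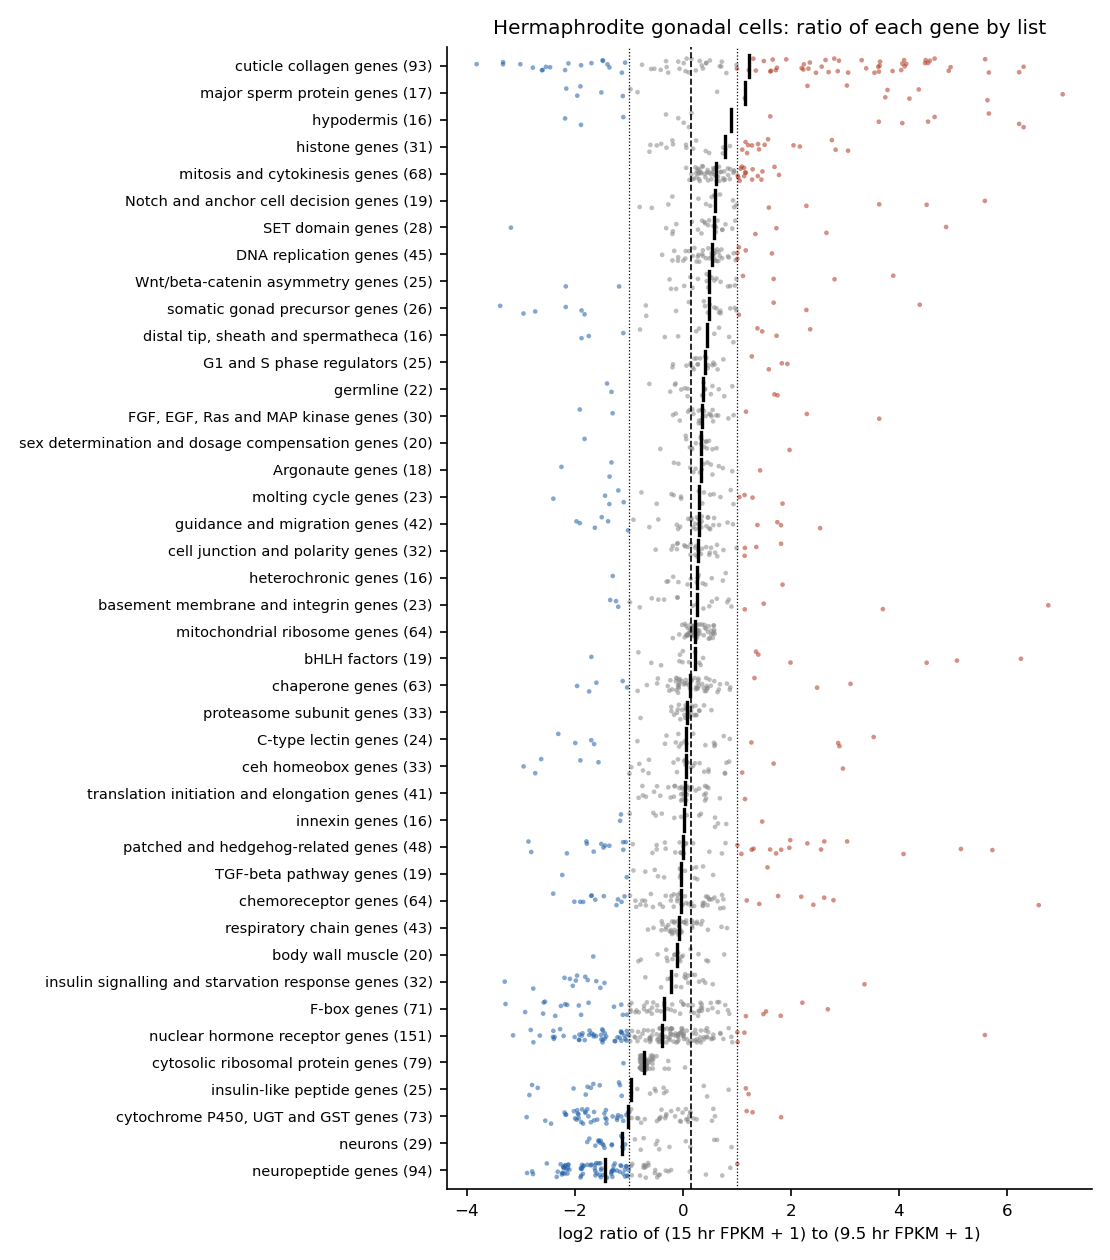
Log2 ratio of each gene with at least 5 FPKM at one time in hermaphrodite gonadal cells, by list (number of genes in parentheses, lists of at least 15 genes, ordered by median). Bars are list medians, the dashed line is the median of all 10256 genes (0.16) and dotted lines are the 2-fold limits. Neuropeptide genes (median -1.44) and cuticle collagens (median 1.22) lie at the ends, and ribosomal protein genes form a narrow cluster near -0.73.

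Among the remaining genes with the lowest ratios, several had a greater FPKM in the gonadal cells than in whole larvae at 9.5 hr. W08E12.8 (present symbol *pugs-9*, chromosome IV, 3292117 to 3294630) was at 159 and 13 FPKM in gonadal cells and at 8.10 and 10.1 FPKM in whole hermaphrodites. F26A1.9 (chromosome III, 4825423 to 4826204) was at 61.4 and 5.33 FPKM, and at 3.25 and 5.64 FPKM in whole hermaphrodites. *xtr-2* (chromosome X, 12315472 to 12317605) was at 52.1 and 4.32 FPKM, T22E5.3 (*igdb-3*, chromosome X, 6385448 to 6387826) at 26.1 and 1.68 FPKM, and F59E11.6 (chromosome V, 8991766 to 8993066) at 39.1 and 2.73 FPKM, each above whole hermaphrodites at 9.5 hr (4.17, 3.87 and 2.88 FPKM). F40H3.2 (*spig-17*; positions 6173620 to 6174414 of chromosome II) was at 86.4 and 5.76 FPKM, with 33.5 and 19.9 FPKM in whole hermaphrodites. By contrast F46F2.3 (chromosome X, 15259514 to 15260221) and Y73B6BL.24 (*acp-6*, chromosome IV, 6424590 to 6426130) were at 51.7 and 54.5 FPKM at 9.5 hr, below the 208 and 186 FPKM of whole hermaphrodites. C01G10.16 (*txt-12*, chromosome V, 15093193 to 15094301) was at 22.8 and 1.25 FPKM in hermaphrodite gonadal cells and at 4.43 and 5.65 FPKM in male gonadal cells.

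Some genes were listed at 0 at one of the times. A listed 0 may be a failed estimate, and 1350 genes were listed at 0 at 9.5 hr and 2255 at 15 hr, so no fold is given for these. The genes named in this paragraph are not among the estimates marked as skipped, failed or low in data. Of genes with at least 5 FPKM at the other time, 15 were listed at 0 at 9.5 hr and 24 at 15 hr. The highest listed at 0 at 9.5 hr were R12E2.14 (133 FPKM at 15 hr; chromosome I, 4149983 to 4150636), *nspb-11* (130 FPKM; chromosome II, 12907336 to 12907630) and Y57G11C.39 (*srlf-27*, 95.5 FPKM; chromosome IV, 14637723 to 14641200). At 15 hr R12E2.14 reached 242 FPKM in the male cells and 410 FPKM in whole hermaphrodites, and *nspb-11* reached 726 FPKM in whole hermaphrodites. Y57G11C.39 had 0.766 FPKM in the male cells and 5.07 FPKM in whole hermaphrodites at 15 hr, well below hermaphrodite gonadal cells. The highest listed at 0 at 15 hr were C53A5.14 (37.6 FPKM at 9.5 hr; chromosome V, 14531109 to 14531358) and F12F6.10 (36.9 FPKM; chromosome IV, 11548049 to 11548564). Whole hermaphrodites at 15 hr were at 157 and 91.7 FPKM for these.

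The ratios of male gonadal cells were set beside those of hermaphrodites. The pairs share no samples, but each time was normalized with both sexes in 1 run. In male gonadal cells 1224 of 10418 genes (11.7%) were at least 2-fold higher and 1322 (12.7%) at least 2-fold lower. These counts require at least 5 FPKM at one time in male cells. Of the 1224, 490 were among the 848 genes higher in hermaphrodites, which is 57.8% of the hermaphrodite genes and 40% of the male genes. Of the 1322, 770 were among the 1482 lower genes, which is 52% and 58.2%. Without a minimum on the male side, 510 of the 848 higher genes were also at least 2-fold higher in males and 27 at least 2-fold lower. Likewise 802 of the 1482 lower genes were also lower in males and 25 higher. Over the 10256 genes Spearman's rho between the log2 ratios of the sexes was 0.686, as a description across genes.

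Whole hermaphrodites overlapped less. There 1210 of 12489 genes (9.69%) were at least 2-fold higher and 870 (6.97%) at least 2-fold lower. Of these, 296 were among the 848 higher gonadal genes (34.9% of the gonadal genes and 24.5% of the whole-animal genes), and 246 were among the 1482 lower ones (16.6% and 28.3%). Without a minimum in whole hermaphrodites these overlaps were 298 and 299 genes. Spearman's rho between the ratios of gonadal cells and whole hermaphrodites was 0.313. Within 2-fold in both male gonadal cells and whole hermaphrodites were 244 of the 848 higher genes (28.8%) and 528 of the 1482 lower genes (35.6%). *fax-1*, *set-32*, *lin-3*, *pha-4* and *cfz-2* were of the first kind, and C01G10.16 and *ins-11* of the second. Whether a ratio differed between the sexes was not tested.

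**Figure D5:**
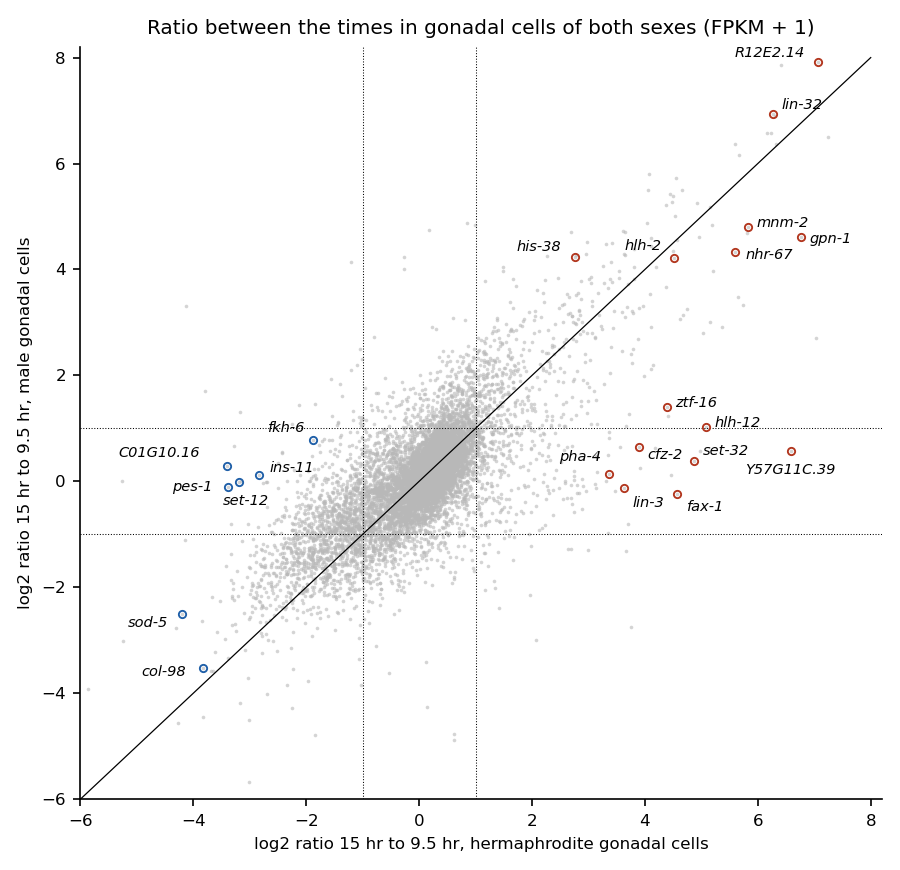
Log2 ratio of 15 hr to 9.5 hr (FPKM plus 1) in hermaphrodite gonadal cells and in male gonadal cells for the 10256 genes, with equality (solid line), the 2-fold limits (dotted) and named genes circled. *lin-32* and *hlh-2* lie near the line of equality, *nhr-67* (5.6 and 4.32) lies off it, *fax-1* (4.57 and -0.24) and *lin-3* (3.64 and -0.12) lie near 0 on the male axis, and *pes-1* (-3.39 and -0.11) does so among lower genes.

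Some regulators with large ratios in male gonadal cells were not past the limit (FPKM plus 1) in hermaphrodites, and are named after their values were seen. The Notch receptor gene *glp-1*, close to the limit, was at 4.18 and 9.34 FPKM in hermaphrodite gonadal cells and at 3.94 and 141 FPKM in male gonadal cells. The Hox gene *egl-5* was at 3.93 and 3.61 FPKM and at 2.67 and 102 FPKM in males, and the zinc finger gene *lin-29* (in a shared locus) at 1.63 and 2.26 FPKM and at 2.41 and 35.9 FPKM. In hermaphrodite gonadal cells *egl-5* and *lin-29* were under 5 FPKM at both times, so they lie outside the genes compared here. Of 6 Hox and cofactor genes with at least 5 FPKM in hermaphrodite gonadal cells, 0 were past the limit upwards and 1, *ceh-40* (7.51 and 1.88 FPKM), downwards.

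Genes past the limit were unevenly spread over chromosomes and levels. On the X chromosome 180 of 1365 genes (13.2%) were at least 2-fold higher and 262 (19.2%) at least 2-fold lower. On chromosome V, 169 of 1847 genes (9.15%) were higher and 403 (21.8%) lower. On chromosomes I and III the shares were smallest, at 6.26% and 6.67% higher and 8.9% and 8.57% lower. The median ratio was 0.14 on the X chromosome, near the 0.16 of all genes. Genes with 10 to 50 FPKM at their higher time were past the limit more often (12.3% higher and 25% lower of 3175) than those with 50 to 200 FPKM (5.39% and 5.37% of 5008). Level classes and chromosomes were not separated from each other.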

How the data were processed

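RNA of sorted gonadal cells and of unsorted dissociated larvae was sequenced by the authors as single-end 50-base reads after depletion of ribosomal RNA. Per the labels, the authors used CASAVA 1.8, TopHat 1.4.1, Picard 1.56 and Cuffdiff 2.1.1 on the ce10 (WS220) genome. Cuffdiff was run separately for each time. The deposited tables (2, with 4 groups each) hold FPKM, computed by the authors and pooled over the samples of a group, and the authors' comparison columns (log2 fold changes, test statistics, p-values and q-values), which were not used. Unused per-sample columns numbered 0. Depth per sample is unknown from FPKM, so no interval or detection limit is given.

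FPKM values of both times were matched by gene, and the log2 ratio was computed with a pseudocount of 1 FPKM for genes with at least 5 FPKM at one time (Python 3.11.15, NumPy 2.4.6, pandas 2.3.3, SciPy 1.17.1, Matplotlib 3.10.9). With 1 pooled value per group no test could be fitted, so genes were counted at a 2-fold limit. The computation was tested on simulated data. Of the 10256 genes, 1757 share a locus with another gene, 19 entries in the tables merge several genes, and 7 have a skipped or failed estimate by the authors. Whether counting used strand is not given in the sources used here, so reads of overlapping genes cannot be told apart. Locus starts were raised by 1 to give 1-based positions. Present symbols in place of sequence names are from RefSeq (WBcel235), used for names only.

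Genes were named by rule: the 15 highest and 15 lowest ratios among single-gene entries with at least 1 FPKM at both times, the 5 highest genes listed at 0 at the other time in each direction, the 5 most abundant at each time, up to 4 members of each list with the largest absolute ratio, and the genes that define the cells. Not all of these are described. For the highest and lowest ratios and the genes listed at 0, merged entries and estimates marked as skipped, failed or low in data were left out. Other genes named as members of a list past the limit, or beside such genes, were chosen after their values were seen. The members and the lists were chosen with earlier results of these data known. Alternatives were other pseudocounts, scalings, level minimums and limits, and subtraction of the whole-animal ratio.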

Additional observations from a re-analysis of the deposited data

How the results depend on the processing

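No paired analysis was possible because the tables hold 1 pooled value per group, and for the same reason no replicate could be left out. The counts of genes at least 2-fold higher and lower (848 and 1482) stayed within 1.5 times of these values under other scalings (sum, upper quartile, median, quantile), subtraction of the whole-animal ratio, a pseudocount of 0.1 FPKM and other level minimums. A pseudocount of 5 FPKM lowered the number of lower genes to 929, and a 4-fold limit left 305 higher and 401 lower genes. After subtraction of the whole-animal ratio, 461 of the 848 and 920 of the 1482 genes were still past the limit in the same direction. Among the 15 highest and 15 lowest ratios, that subtraction turned the sign for the entry named cuticlin (-0.49), *dpy-5* (-0.30), R12E2.7 (-1.59) and *sqt-3* (-0.99). It also turned other genes named in the text, among them *dpy-13* (-0.20), *phat-2* (-3.95), *nspb-12* (-1.31) and *hsp-12.1* (-0.08). It turned the median of cuticle collagens (-1.04) and that of the major sperm protein list (-0.42), which includes *nspb* genes. It also turned the medians of hypodermis markers (from 0.89 to -1.11), molting cycle genes (0.30 to -0.68), Hox genes and cofactors (0.15 to -0.87) and pharynx markers (0.32 to -0.30), and the ratios of *ckb-3* (-0.68 to 0.09) and *lag-2* (0.58 to -0.50). The median of patched and hedgehog-related genes went from 0.002 to -1.13. Other medians near 0 that also changed sign were those of TGF-beta, body wall muscle, respiratory chain, *ceh* homeobox, C-type lectin, chemoreceptor and innexin genes. The major sperm protein median was also below 0 with genes of at least 1 FPKM (-0.50) and without merged entries, failed estimates and loci under 300 bases (-0.97), where other genes are counted. For the other sign changes the cause was not tested. Depth is unknown, so no level below which a difference is undetectable can be given.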

Other observations

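Several families outside the comparisons above had members past the 2-fold limit. The heterochronic genes *lin-42* (chromosome II, 1233957 to 1244042), a Period-family gene of developmental timing, and *lin-14* (chromosome X, 11469420 to 11484202), a gene of first-stage fates, went opposite ways, at 12.2 and 46.4 FPKM and at 21.1 and 7.96 FPKM, while 14 other members with at least 5 FPKM lay within 2-fold. In whole hermaphrodites *lin-42* was at 16.5 and 57.3 FPKM and *lin-14* at 108 and 110 FPKM. Of 48 patched and hedgehog-related genes, 16 were higher (33.3%, against 8.27% over all genes) and 13 lower (27.1%, against 14.5%). In whole hermaphrodites 24 of the 48 were higher and 4 lower. Their median was 0.00 in gonadal cells and 0.91 in whole hermaphrodites. Of 28 SET domain genes, 4 (14.3%) were higher (*set-32*, *set-15*, *set-20* and *set-19*) and 1 (3.57%), *set-12*, lower, with a median of 0.58. *set-15* (chromosome IV, 4775234 to 4780075) was at 8.4 and 58.4 FPKM.

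Of 71 F-box genes, 16 were lower (22.5%, against 14.5% over all genes) and 6 higher (8.45%, against 8.27%). The lowest ratios included *fbxa-188* (chromosome V, 17342911 to 17344877) at 23.2 and 1.48 FPKM and its neighbour *fbxa-189* (chromosome V, 17345203 to 17347684) at 18.9 and 1.63 FPKM. Of 17 genes in the major sperm protein list, which includes genes named *nspb* and not *msp*, 9 were higher (52.9%) and 5 lower (29.4%). Those higher included *nspb-12* (0.975 and 35.2 FPKM, chromosome III, 5568171 to 5568738), which was at 4.90 and 267 FPKM in whole hermaphrodites. Among small heat shock genes, *hsp-12.1* (chromosome I, 10581679 to 10582597) was at 4.81 and 31.6 FPKM and *hsp-12.6* (chromosome IV, 9446368 to 9446867) at 29 and 6.72 FPKM. The highest level at 15 hr was that of T07A5.5 (chromosome III, 10318358 to 10318465), at 834 and 1470 FPKM, a short locus whose FPKM is uncertain.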
